A study of Mus musculus with 4 samples.

Results

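The E proteins, the Id factors that bind them and the helix-loop-helix factors with their partners known from T-cell leukemia were followed in Beko cells upon washout of the γ-secretase inhibitor (GSI). The set was named by gene symbol and holds 10 of the 24391 genes of the count table: Tcf3, Tcf4 and Tcf12, Id1, Id2 and Id3, and Tal1, Lyl1, Lmo2 and Hhex. All 10 symbols have a row in the table. Beko cells are a mouse leukemia line of progenitor T-cells in which Notch signaling is constitutively active, and the GSI, DAPT, blocks the release of the Notch intracellular domain. RNA-Seq was available for 2 libraries of Beko cells held in GSI for 48 h and for 2 libraries of cells held in GSI for 48 h, washed, and then cultured for 24 h. The labels give the DAPT dose as 10 mg/ml and the methods as 10 μg/ml. All 4 libraries come from this 1 line and all had received GSI. The washed cells were therefore also cultured for longer, and return of Notch activity cannot be told apart from the wash and the added time. Nothing in the labels says that the replicates were separate cultures, so p-values measure the spread between these libraries, which may be technical.

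E proteins are basic helix-loop-helix factors that bind E-box DNA as dimers with each other or with tissue-restricted partners, and they drive early T- and B-cell development. Id factors have the helix-loop-helix but no basic region, so that an E protein bound to one cannot bind DNA. Tal1 and Lyl1 pair with E proteins and, together with the bridging protein Lmo2, form a complex of blood stem cells and red-cell precursors. When they are expressed in thymocytes they can cause T-cell leukemia, and Hhex, a homeobox factor, is a known target of Lmo2 there.

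The libraries held between 13716199 and 36364200 counted reads, and replicate 1 was the deeper one in both conditions. Of the T-cell progenitor markers, all 13 were measured and tested in these libraries, with a summed level of 5966 and 6433 counts-per-million (CPM) in GSI, against 6111 and 5962 CPM upon washout. Of these, 2 were called higher upon washout and 2 lower. By adjusted p alone, 4 were higher and 5 lower, beside 27% and 25.4% of all genes tested. The similar sums thus do not mean that the single markers stayed level. Across all genes, 19.5% of the 12266 tested passed both thresholds of the study, which ask for a log2 fold change of more than 1 in either direction and for an adjusted p of less than 0.05. In all, 7.74% were higher and 11.7% lower upon washout. Scaling to the total count alone in place of TMM factors shifted the log2 fold change of the genes by -0.20 in the median and took the share of upregulated genes among those called from 39.8% to 23.0%. Log2 fold changes below are relative to the TMM scaling.

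For 7 of the 10 genes, a promoter was found in RefSeq (GRCm38.p6), and the 250 bases before the start site were searched on both strands for TGGGAA, the core motif of RBPJ, and for CANNTG, the E-box that E proteins bind. These are the genes Tcf3, Tcf12, Id2, Id3, Tal1, Lyl1 and Hhex, with 10 start sites between them. Promoter positions are in this build, whereas the gene positions given further on are in mm9, the mouse build of the counts. Shown are the promoters of the genes that passed the adjusted p-value and have an entry, namely Id2, Id3 and Lyl1, which were lower upon washout, and Tcf3, which was higher, with each match in capitals.
Id2, chr12:25096093-25096342, - strand: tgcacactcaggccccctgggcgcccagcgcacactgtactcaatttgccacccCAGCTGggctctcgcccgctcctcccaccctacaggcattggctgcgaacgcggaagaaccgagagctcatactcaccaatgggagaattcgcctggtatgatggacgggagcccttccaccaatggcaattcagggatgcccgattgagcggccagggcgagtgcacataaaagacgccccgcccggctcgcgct
Id3, chr4:136143572-136143821, + strand: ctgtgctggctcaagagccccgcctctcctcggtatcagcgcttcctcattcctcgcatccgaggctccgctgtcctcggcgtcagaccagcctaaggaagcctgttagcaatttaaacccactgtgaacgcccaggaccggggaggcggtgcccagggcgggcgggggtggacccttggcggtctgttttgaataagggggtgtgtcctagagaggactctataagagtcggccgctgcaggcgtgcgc
Lyl1, chr8:84701207-84701456, + strand: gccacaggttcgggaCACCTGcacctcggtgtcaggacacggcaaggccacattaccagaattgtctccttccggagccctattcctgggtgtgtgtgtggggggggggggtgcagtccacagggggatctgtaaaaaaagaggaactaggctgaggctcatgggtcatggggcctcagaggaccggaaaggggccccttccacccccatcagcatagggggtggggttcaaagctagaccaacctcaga
Tcf3, chr10:80433636-80433885, - strand: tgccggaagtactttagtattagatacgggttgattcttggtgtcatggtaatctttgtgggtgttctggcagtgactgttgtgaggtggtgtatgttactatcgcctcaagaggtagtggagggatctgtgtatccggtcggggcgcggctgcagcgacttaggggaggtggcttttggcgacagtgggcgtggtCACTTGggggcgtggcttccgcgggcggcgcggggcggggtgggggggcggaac

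In the windows of Id2, Lyl1 and Tcf3 there was 1 E-box each, whereas the Id3 window held none. The E-box of Id2 began 196 bases, that of Lyl1 235 bases and that of Tcf3 54 bases before the start site. In Id2 the letters were CAGCTG and in Lyl1 CACCTG. Of all 32851 promoter windows of the same length, 66.2% held a CANNTG, 13% a CAGCTG and 17.2% a CACCTG, the last 2 being forms of the first. None of the 4 windows shown held TGGGAA, which was found in 21.6% of all windows. Among the 10 windows, TGGGAA occurred only at 1 start site of Tal1. Such matches describe the letters of these windows and nothing more.

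Upon washout, 1 of the 7 genes that could be tested was upregulated past both thresholds and 2 were downregulated, against 7.74% and 11.7% of all genes tested (19.5% in either direction). Id1 rose, whereas Id3 and Lyl1 fell. With the adjusted p-value alone, Tcf3 was also higher and Id2 lower, which makes 5 of 7 (2 higher and 3 lower). Of all genes tested, 52.5% passed on this count, 27% higher and 25.4% lower, so that this share says little about the set. Lmo2, Hhex and Tal1 had too few reads for the test. The libraries of the 2 conditions did not overlap in 6 of the 7 tested genes, the exception being Tcf4, and this held for 77.3% of all genes tested. In bulk RNA, a smaller share of cells expressing a gene and less RNA per cell cannot be told apart.

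**Figure D1:**
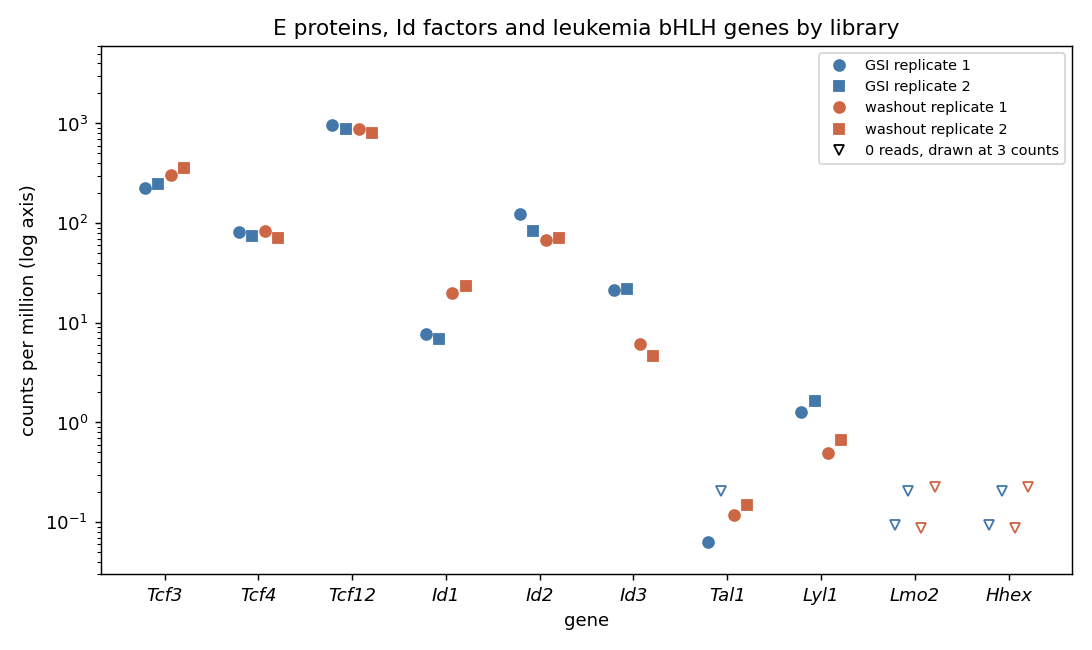
Level of each gene in each library, in counts-per-million on a log axis, with GSI in blue and washout in orange, circles for replicate 1 and squares for replicate 2. Id1 lies higher upon washout, Id3 and Lyl1 lie lower, and the open triangles mark libraries with 0 reads (all 4 for Lmo2 and Hhex, GSI replicate 2 for Tal1), drawn at the level of 3 counts.

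Among the Id factors, Id1 (chromosome 2, 152561987 to 152563146 in mm9, plus strand) had 247 and 101 reads in GSI and 672 and 316 upon washout. These are 7.72 and 6.92 CPM in GSI, against 19.7 and 23.5 CPM upon washout. Both washout libraries lay above both GSI libraries. Id1 was 2.93-fold higher, a log2 fold change of 1.55 (standard error 0.164, 95% interval 1.15 to 1.95), at an adjusted p of 0.000798. Id1 limits the differentiation of many cell types and is induced by bone morphogenetic proteins in most of them.

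Id3 moved the other way. It lies on chromosome 4 from 135699412 to 135701670 on the plus strand, and its product restrains E proteins in thymocytes, where signaling by the pre-T-cell receptor induces it. Reads of Id3 numbered 683 and 318 in GSI and 211 and 63 upon washout. The levels of Id3 were 21.3 and 21.8 CPM in GSI, against 6.20 and 4.69 CPM upon washout, so that the GSI libraries agreed closely and both washout libraries lay far below them. The gene was 3.88-fold lower, at a log2 fold change of -1.96 (standard error 0.180, 95% interval -2.39 to -1.52) and an adjusted p of 0.000565. For Id1 and Id3 the intervals lie wholly on opposite sides of 0 and past the threshold of 1.

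Id2, which is needed for innate lymphoid and natural killer cells, was the most abundant of the Id genes. It lies on chromosome 12 from 25778666 to 25780957 on the minus strand. The levels of Id2 were 123 and 83.0 CPM in GSI, against 67.3 and 70.4 CPM upon washout. Here the GSI libraries differed from each other more than GSI replicate 2 differed from the washed cells. The log2 fold change of Id2 was -0.59 (standard error 0.184, adjusted p = 0.0365), less than the threshold of 1. Without GSI replicate 1 the value was -0.28 (adjusted p = 0.178), and without washout replicate 1 it was -0.55 (adjusted p = 0.0512), so that the call by adjusted p rests on these libraries. Id4 had 1 read in 1 GSI library and 0 in the others, and was not tested.

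**Figure D2:**
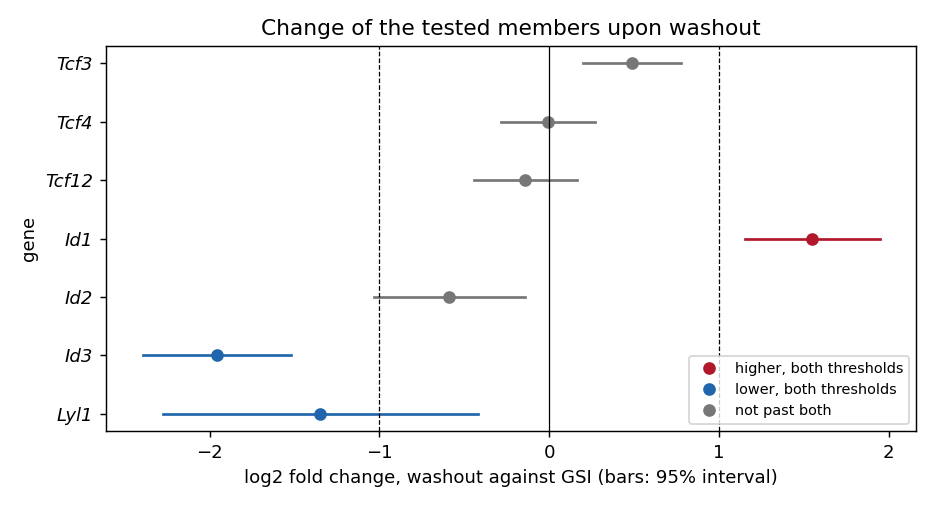
Log2 fold change of washout against GSI for the 7 genes tested, with 95% intervals as bars and dashed lines at the threshold of 1 in either direction. Id1 alone lies past the threshold on the right, at 1.55, and Id3 and Lyl1 lie at -1.96 and -1.35. Tcf3 (0.49) and Id2 (-0.59) lie within the thresholds, and the intervals of Tcf4 and Tcf12 span 0.

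None of the E protein genes passed both thresholds. Tcf12, which encodes HEB, the E protein that is most prominent in thymocytes, lies on chromosome 9 from 71692059 to 71959626 on the minus strand. It had 964 and 873 CPM in GSI, against 871 and 795 CPM upon washout. The washout libraries lay just below the GSI libraries, by less than the spread within each condition. Its log2 fold change was -0.14 (standard error 0.12, 95% interval -0.44 to 0.16), at an adjusted p of 0.379. A change of more than 0.44 in either direction thus lies outside the interval.

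Tcf3, the founding E protein gene of lymphocytes, lies on chromosome 10 from 79872259 to 79896392 on the minus strand. Reads of Tcf3 made up 227 and 248 CPM in GSI, against 307 and 358 CPM upon washout. Both washout libraries were higher than both GSI libraries. The gene was 1.40-fold higher, or by 0.49 on the log2 scale (standard error 0.118, 95% interval 0.20 to 0.77, adjusted p = 0.0152), which is under the threshold of 1. The size depended on the processing: it was 0.29 when scaled to the total count (adjusted p = 0.075) and 0.87 after correction for GC content and exon length (adjusted p = 0.00046). Without GSI replicate 1 it was 0.42 (adjusted p = 0.109).

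Tcf4, which is best known from plasmacytoid dendritic cells and is not the Wnt effector of the same nickname, was the lowest of the E proteins. This gene, on chromosome 18 from 69503800 to 69847621, had 80.8 and 73.9 CPM in GSI, against 83.0 and 70.9 CPM upon washout. The libraries of the conditions overlapped, and the estimated log2 fold change was -0.0061 (standard error 0.114, 95% interval -0.28 to 0.27), at an adjusted p of 0.968. Its sign changed with the processing.

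Levels of different genes were compared per kb of exon. On this scale Tcf12 led with 198 and 179.6 CPM per kb in GSI and 179 and 164 CPM per kb upon washout, at percentile 97.5 of the tested genes with a known exon length. Id2 and Tcf3 followed, in an order that differed between the conditions. In GSI, Id2 (97.0 and 65.4 CPM per kb) lay above Tcf3 (56.2 and 61.3), and upon washout Tcf3 (76.1 and 88.6 CPM per kb) lay above Id2 (53.0 and 55.5). Below them came Id1, Id3 and Tcf4, whose order also depended on the condition. Among these, in GSI, Id3 (11.9 and 12.2 CPM per kb) exceeded Id1 (6.65 and 5.97) and Tcf4 (6.60 and 6.03), the latter 2 being indistinguishable. Upon washout, Id1 (17.0 and 20.3 CPM per kb) came first, then Tcf4 (6.77 and 5.79), then Id3 (3.46 and 2.62). Id3 was thus above Tcf4 in GSI and below it upon washout, while Id1 went from the level of Tcf4 to above it.

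The summed E protein levels overlapped between the conditions, whereas the shares of Tcf3 and Tcf12 did not. Summed per kb, Tcf3, Tcf4 and Tcf12 came to 261 and 247 CPM per kb in GSI and to 262 and 258 CPM per kb upon washout. Within this sum, Tcf3 took 21.5% and 24.8% in GSI and 29.0% and 34.4% upon washout. The share of Tcf12 was 76.0% and 72.7% in GSI and 68.4% and 63.4% upon washout. Tcf4 stayed at 2.24% to 2.58% in every library.

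The Id factors came to 116 and 83.5 CPM per kb in GSI and 73.5 and 78.3 CPM per kb upon washout. Id2 made up most of this sum in every library, with 83.9% and 78.3% in GSI and 72.1% and 70.8% upon washout. The share of Id1 was 5.76% and 7.14% in GSI and 23.2% and 25.9% upon washout. That of Id3 was 10.3% and 14.6% in GSI and 4.71% and 3.34% upon washout. In GSI, then, Id3 was the second most abundant Id transcript, and upon washout Id1 was.

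As a ratio of the sums, Id to E protein transcripts stood at 0.443 and 0.338 in GSI and at 0.280 and 0.304 upon washout. Both washout libraries were lower, by 0.41 on the log2 scale on average. This difference was 0.21 without GSI replicate 1, the library with the high Id2 level, and no test was made of it. The ratio counts transcripts, not proteins.

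**Figure D3:**
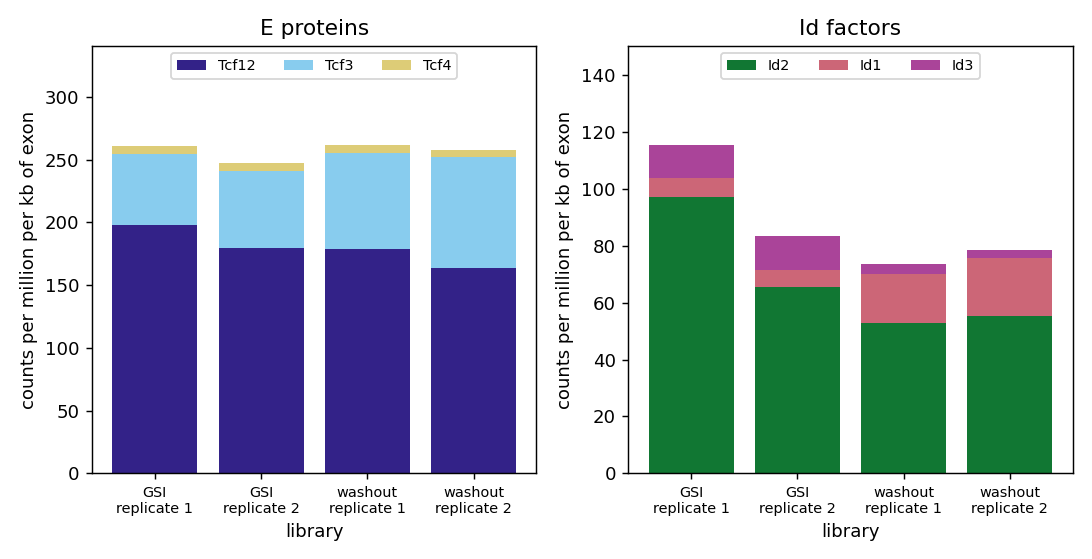
Summed levels of the E protein genes (left) and the Id genes (right) in each library, in counts-per-million per kb of exon, stacked by gene. The E protein sums lie between 247 and 262 with a growing Tcf3 part upon washout, and in the Id sums the Id1 part is larger and the Id3 part smaller upon washout.

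Of the factors known from leukemia, Lyl1 alone had enough reads to be tested. It lies on chromosome 8 from 87225356 to 87228614 on the plus strand, and had 41 and 24 reads in GSI and 17 and 9 upon washout. At 1.28 and 1.64 CPM in GSI, against 0.499 and 0.669 CPM upon washout, Lyl1 was at percentile 9.10 of the tested genes in level per kb. Both washout libraries were lower, and the log2 fold change of Lyl1 was -1.35 (standard error 0.383, 95% interval -2.28 to -0.42, adjusted p = 0.0265). The call did not hold with DESeq2 (-1.33, adjusted p = 0.149), with counts thinned to the smallest library (-1.13, adjusted p = 0.0667) or without any 1 of the libraries, where the adjusted p ran from 0.0562 to 0.21. The gene lies within the span of Nfix on the other strand, with 4 exon bases in common. Nfix was far more abundant, at 66.4 and 64.8 CPM in GSI, against 60.7 and 55.3 CPM upon washout. The paper names a stranded total RNA library kit, but the strand setting of the counting is not given in the sources used here.

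Tal1, on chromosome 4 from 114729031 to 114744360, had 2 and 0 reads in GSI and 4 and 2 upon washout, and no fold change is given at this depth. No read was counted on Lmo2 (chromosome 2, 103798143 to 103822035) or on Hhex (chromosome 19, 37507377 to 37515218) in any library. A count of 0 allows up to 3 counts, or 0.0937 and 0.206 CPM in the GSI libraries and 0.0881 and 0.223 CPM in the washout libraries, from counting error only. In all, 7342 genes of the table had 0 reads in every library. Lmo2 overlaps 4931422A03Rik on the other strand, without exon bases in common.

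Since Tal1, Lyl1 and Lmo2 belong to the red-cell and mast-cell programs, markers of both were read beside Lyl1. Of the erythroid markers, the globin genes Hba-a1 and Hbb-b1 were at 0 in every library, and the summed level was 23.8 and 21.4 CPM in GSI, against 11.3 and 10.8 CPM upon washout. Of the 8 mast cell markers, Mcpt4, Cma1, Fcer1a, Ms4a2 and Tpsb2 were at 0 in every library and Gata2 had at most 1 read in any library. The mast cell sum, which is nearly all Cpa3 and Kit, was 274 and 167 CPM in GSI, against 45.7 and 30.5 CPM upon washout. The myeloid sum, nearly all Itgam, was 49.3 and 38.2 CPM in GSI, against 5.55 and 4.91 CPM upon washout, with Lyz2 and Elane at 0. B-cell markers came to at most 1.51 CPM in any library. The stromal sum, nearly all Pdgfrb, was 47.6 and 45.2 CPM in GSI, against 27.9 and 36.5 CPM upon washout, with Dcn and Lum at 0. The part of any such cells in the Lyl1 result was not tested.

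The partners of Tal1 and Lmo2 give the setting of these counts. Of 13 genes listed, 9 could be tested, of which none was called higher and 3 were called lower, beside 7.74% higher and 11.7% lower among all genes. Their median log2 fold change was -0.35, against -0.0096 over all genes tested. The largest fall was that of Gata3, the T-lineage zinc finger factor, which went from 262 and 208 CPM in the GSI libraries to 75.8 and 71.7 CPM after washout (log2 fold change -1.67, adjusted p = 0.000438). The other two were Cbfa2t3, a corepressor of the complex, at -1.52, and Gata1, the red-cell factor, at -1.26, both named after their values were seen. Ldb1, which holds the complex together by binding Lmo2, had 208 and 233 CPM in GSI, against 206 and 249.5 CPM upon washout, which is 0.04 on the log2 scale with a standard error of 0.129. Runx1 had a log2 fold change of -0.35 (adjusted p = 0.0178), under the threshold of 1. Lmo1 was at 0 in every library, and Tal2, Lmo3 and Gata2 each had at most 1 read in any library.

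Of 10 early progenitor genes that accompany this complex in blood stem cells, 7 had at most 3 reads in every library, among them Cd34, Meis1, Mef2c and Erg, which were at 0. Only Kit and Nfe2 could be tested. Kit, the receptor of stem cell factor, fell from 98.8 and 89.3 CPM under GSI to 36.3 and 28.3 CPM, at a log2 fold change of -1.53 (adjusted p = 0.000568). Nfe2 had a log2 fold change of -0.28 with a standard error of 0.428.

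Genes listed as targets of E proteins did not move in 1 direction, and the list does not separate activated from repressed genes. Of 14 listed, 11 could be tested, with 4 called higher, 3 called lower and a median log2 fold change of 0.37. Over all genes tested, 7.74% were called higher and 11.7% lower, with a median of -0.0096. The largest rise was that of Ptcra, the pre-T-cell receptor α chain, from 47.1 and 54.4 CPM under GSI to 249 and 276 CPM, or by 2.37 on the log2 scale (adjusted p = 0.000281). Notch1 rose by 1.14 on the log2 scale. The others called higher were Gfi1b (2.13) and Cdk6 (1.09). At the other end stood Cdkn1a, the cell cycle inhibitor p21, which fell from 118 and 124 CPM under GSI to 22.2 and 18.5 CPM, at a log2 fold change of -2.56. Dntt (-1.62) and Cd4 (-1.16) were also lower. Gfi1b, Cdk6, Dntt and Cd4 were named after their values were seen. Ptcra and Notch1 are also known Notch targets, so that the list is not specific for E proteins.

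**Figure D4:**
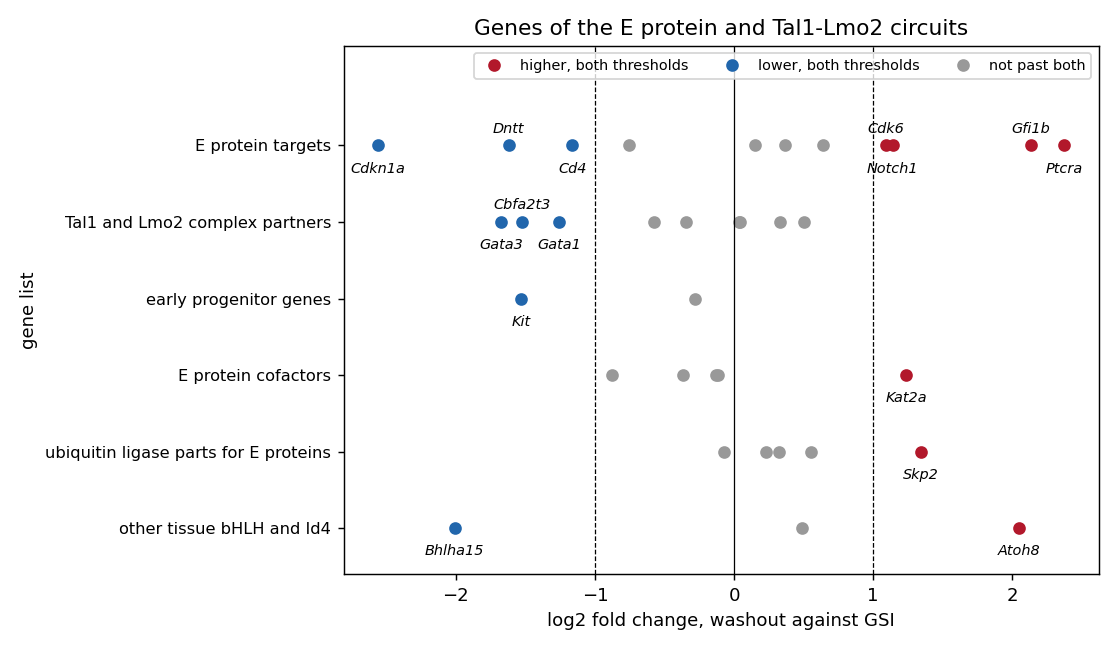
Log2 fold change of washout against GSI for every tested gene of the lists around the E proteins and the Tal1-Lmo2 complex, 1 row per list, with genes past both thresholds named and dashed lines at the threshold of 1. The E protein targets spread from -2.56 (Cdkn1a) to 2.37 (Ptcra). The partners of Tal1 and Lmo2 spread from -1.67 (Gata3) to 0.50 (Ssbp3), with 3 of the 9 tested called, all lower.

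Of the cofactors and of the ubiquitin ligase parts that act on E proteins, 1 of 5 tested genes each was called, which is close to the 19.5% of all genes. Among 5 tested cofactors, only Kat2a, a histone acetyltransferase, passed both thresholds, rising from 58.8 and 66.9 CPM under GSI to 143 and 153 CPM (log2 fold change 1.24). The median of the cofactors was -0.13. Of 5 tested ligase parts, Skp2, the F-box protein through which E proteins can be degraded, rose from 40.7 and 53.2 CPM under GSI to 120.3 and 116 CPM, at a log2 fold change of 1.34 (adjusted p = 0.000788). Skp2 is also a gene of proliferating cells. The median of the ligase parts was 0.32.

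Of 23 genes for Id4 and the helix-loop-helix factors of other tissues, 20 had at most 3 reads in every library. Among the 3 tested, Atoh8 rose from 4.72 and 3.70 CPM under GSI to 19.8 and 15.4 CPM, which is 2.05 on the log2 scale (adjusted p = 0.000784). Bhlha15, a factor of secretory cells, fell from 4.34 and 4.80 CPM under GSI to 1.09 and 1.19 CPM, at a log2 ratio of -2.01 (adjusted p = 0.00186). Scx had a log2 fold change of 0.49 with a standard error of 0.354.

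**Figure D5:**
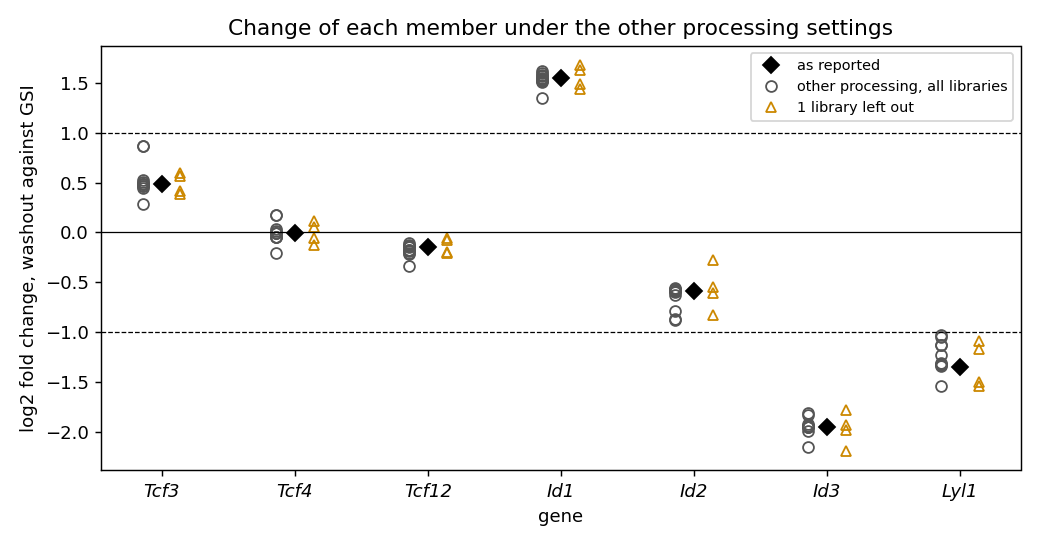
Log2 fold change of washout against GSI for each tested gene as reported (diamonds), under other processing with all libraries (circles) and with 1 library left out (triangles). Id1 and Id3 stay past the dashed lines at the threshold of 1 in each of the 15 settings drawn, Tcf4 falls on both sides of 0, and Id2 reaches -0.28 without GSI replicate 1.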

How the data were processed

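RNA-Seq counts of 4 libraries were used. Reads were trimmed by the authors, aligned to mm9 with HISAT2 2.2.1 and counted per gene with summarizeOverlaps. The deposited counts are neither normalized nor filtered. The paper names a stranded total RNA library kit. The strand setting and overlap mode of the counting are not given in the sources used here. Counts were compared with edgeR 4.0.16 (R 4.3.3) by filterByExpr, TMM factors and the quasi-likelihood test over all genes, adjusted after Benjamini and Hochberg. Thresholds follow the study's methods. Standard errors were derived from the log2 fold change and its F statistic. CPM are counts scaled to library total and TMM factor. Exon lengths (union of exons), GC content and positions came from GENCODE vM1 on the same build, where 20641 of 24391 symbols matched 1 gene. Promoters came from RefSeq, as 250 bases before the start site. The main edgeR fit and that of DESeq2 1.42.0, an alternative, were tested on simulated data, and the other fits were not. Depth limits use 3 counts.

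The members and lists were chosen with earlier results of these data known. Named were all members, the largest called rise and fall of each list, Ldb1, Gata2, Gata3, Runx1, Kit, Ptcra, Notch1, Skp2, Id4, and genes overlapping a member. Alternatives were DESeq2, other size factors, filters, thinned counts, a GC and length correction, a replicate block, other thresholds, a prior count of 2 and leaving out each library. One marker gene is not reported here.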

Additional observations from a re-analysis of the deposited data

How the results depend on the processing

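Id1 and Id3 were called under all 15 alternatives run on each, with log2 fold changes of 1.35 to 1.68 and of -2.19 to -1.78. Lyl1 lost its call under 6 of 14, with values between -1.54 and -1.03, and could not be tested when every library needed 10 counts. These counts per gene leave out glmTreat against a log2 fold change of 1, under which 2 members were called, 1 higher and 1 lower. The 3 genes called became 5 with the adjusted p-value alone and 2 with a library left out, whichever it was. Over all genes, 2387 became 6435 with the adjusted p-value alone, 809 with glmTreat against a log2 fold change of 1, and 1999 to 2419 with a library left out. A fit with 1 library in a condition assumes that it varies like the other condition's.

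The sign of Tcf4, at -0.0061 as reported, turned with DESeq2 (0.011), without a filter (0.030), after correction for GC content and exon length (0.18 without and 0.18 with the replicate block, the latter at an adjusted p of 0.0238) and in the range with a library left out (-0.12 to 0.12). The cause was not tested. Replicates of the same number deviated together (correlation 0.497 across genes), but nothing in the labels pairs them and replicate 1 was the deeper library in both conditions. With the replicate block 2557 genes were called, and the same 3 members. The block left Tcf12 at -0.21 after the GC and length correction, at an adjusted p of 0.00837. The GC and length correction used 89.4% of the tested genes. Few or no reads limited what can be said of Tal1, Lmo2, Hhex and Lyl1.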
